A study of Mus musculus with 8 samples.

Results

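The 38 genes described here comprise 15 enzymes of glycolysis, 20 other genes known as targets of the hypoxia-inducible factor (HIF), and 3 genes of the HIF machinery itself. They were taken by symbol from a list drawn up with earlier results of these data known, so their counts beside those of all genes are a description. All 38 are among the 52459 gene symbols of the count table. Levels were measured by RNA-seq in 8 libraries, each from the AE9a+ leukaemic cells of the spleen of 1 moribund C57BL/6J recipient. All the leukaemias have the genotype RTA shTet2: cKit+ marrow cells carried a retrovirus with AE9a, a truncated RUNX1-RUNX1T1 fusion, and a doxycycline-inducible hairpin against Tet2, and went with wild-type support marrow into lethally irradiated mice that were 6 to 8 weeks old for the primary transplant. Mice 16, 17 and 19 were secondary recipients with sustained Tet2 knockdown given PBS (n = 3), and are the reference for every comparison but 1. Mice 28 and 30 were secondary recipients with sustained knockdown given ascorbate (ASC, n = 2). Mice 21 and 23 were secondary recipients off doxycycline given PBS and labelled Tet2-restored (n = 2). Mouse 12 was a primary recipient with knockdown (n = 1, no replicate). No vector-only or wild-type leukaemia is among these libraries, the dose and schedule of ascorbate are not given in the sources used here, and withdrawal of doxycycline cannot be told apart from restoration of Tet2.

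HIF is a transcription factor of an oxygen-labile alpha subunit such as HIF-1alpha (Hif1a) and a stable partner (Arnt). When oxygen is present, iron-dependent prolyl hydroxylases modify the alpha subunit, and the VHL ubiquitin ligase then sends it for degradation; ascorbate supports hydroxylases of this family and the TET enzymes alike. When the alpha subunit is stable, HIF raises transcription of glucose transporters, nearly every step of glycolysis, the kinase that keeps pyruvate out of the mitochondrion, and genes of mitophagy, blood vessel growth and growth restraint. Much of this control acts on the protein, which RNA-seq does not measure.

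Total counts ran from 18.1 M to 34.2 M per library, and the mitochondrial share of counts from 5.16% in mouse 12 to 17.1% in mouse 28. Levels are given as CPM, gene counts scaled to a common library total adjusted by TMM factors, or as the authors' FPKM where genes are compared with one another. Tet2, the hairpin's target, ran from 12.6 to 13.4 CPM with PBS and knockdown, and was 11.7 and 13.7 CPM under ascorbate. Off doxycycline mouse 21 had 14.1 CPM and mouse 23 had 23.1 CPM (edgeR adjusted p 0.181 for the group). Both lay above every knockdown mouse, but mouse 21 only by little. No library lacks the hairpin, so how far Tet2 was restored cannot be judged. Of the blast marker list, Runx1t1 was at 101 to 304 CPM, Kit at 54.4 to 206, Myb at 180 to 452 and Mpo at 0.0807 to 6.33 CPM. Cd34, Ctsg and Elane each had a library at 0. Runx1t1 was higher under ascorbate (134 and 130 CPM) and off doxycycline (155 and 304) than under PBS knockdown (101 to 108). Myb was lower, at 180 and 265 and at 257 and 195 CPM against 280 to 418. Cd34 was lower off doxycycline (0 and 0.454 against 0.860 to 2.70 CPM), and Kit and Mpo overlapped in both arms. Summed macrophage and mast cell markers differed between PBS knockdown and the other groups, while erythroid sums overlapped among the secondary groups. The 11 macrophage genes summed to 40.4 to 82.3 CPM under PBS knockdown, 26.3 and 26.4 CPM under ascorbate, 12.4 and 33.5 CPM off doxycycline and 23.1 CPM in mouse 12, and 1 of them, Marco, had a library at 0. The 8 mast cell and basophil genes summed to 478 to 620, 803 and 1115, 1178 and 1436, and 1430 CPM in the same order, with 1 gene, Mcpt8, at 0 in a library. The 9 erythroid genes found summed to 5060 to 12400, 5343 and 10050, 7283 and 10910, and 4054 CPM, none with a library at 0. The summed B cell, T and NK cell, mature neutrophil and stromal genes each stayed at 12.8 CPM or below in the 7 secondary mice. The part of these cells in the results below was not tested, and in bulk RNA fewer cells of a type and less RNA per cell cannot be told apart.

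Within the PBS knockdown mice the members spanned the whole range of expression. By the authors' FPKM, which is per transcript length, the most abundant was Ldha, lactate dehydrogenase A, at 294 FPKM (mean of 3 mice, above 99.4% of the genes tested). Next came Aldoa (188 FPKM), Tpi1 (125), Hk1 (92.6), Gpi1 (81.1), the mitophagy receptor Bnip3l (62.9), Fam162a (55.3) and Pkm (39.8). At the other end Eno2, the neuronal enolase, had 1 count in mouse 16 and 0 in the other libraries, and Adm, the vessel-active peptide adrenomedullin, had 1 count each in mice 17 and 28. These 2 members fell under the filter on low counts, so that 36 of 38 were tested. Ndrg1, a stress-induced cytoplasmic protein, was tested at 1 to 12 counts per library and is uninformative here. Gapdh, which is usually among the most abundant glycolytic messages, was at 1.86 FPKM (7.94, 8.25 and 7.03 CPM), above 28.7% of tested genes, and Pgk1 and Pgam1 were at 7.22 and 2.60 FPKM.

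Several members share sequence with other genes, which is given here because reads that match several genes are often left out of counts. Of the 50-base windows of the longest protein-coding transcript, 82.5% of those of Gapdh also occur in another annotated gene, 222 genes in all, most often pseudogene copies such as Gm7336. The shares were 76.4% for Mif, 72.2% for Eno1, 68.0% for Pgk1, 62.4% for Bnip3, 41.5% for Pgam1 and 34.4% for Pkm. At least 10% of windows were shared in 9 of 15 enzymes and 7 of 20 other HIF targets, and 15 of the 38 members overlap an antisense exon of another gene. Both strands were searched, so windows that lie over such an antisense exon count as shared. For Pfkp, Fam162a, Ankrd37 and Ndrg1 the only sharing genes are these antisense neighbours at the same place, not copies elsewhere. The sources used here give neither the counting rule for such reads nor the strand setting, so the levels of these members are uncertain, and the part of shared reads in the differences was not tested.

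**Figure D1:**
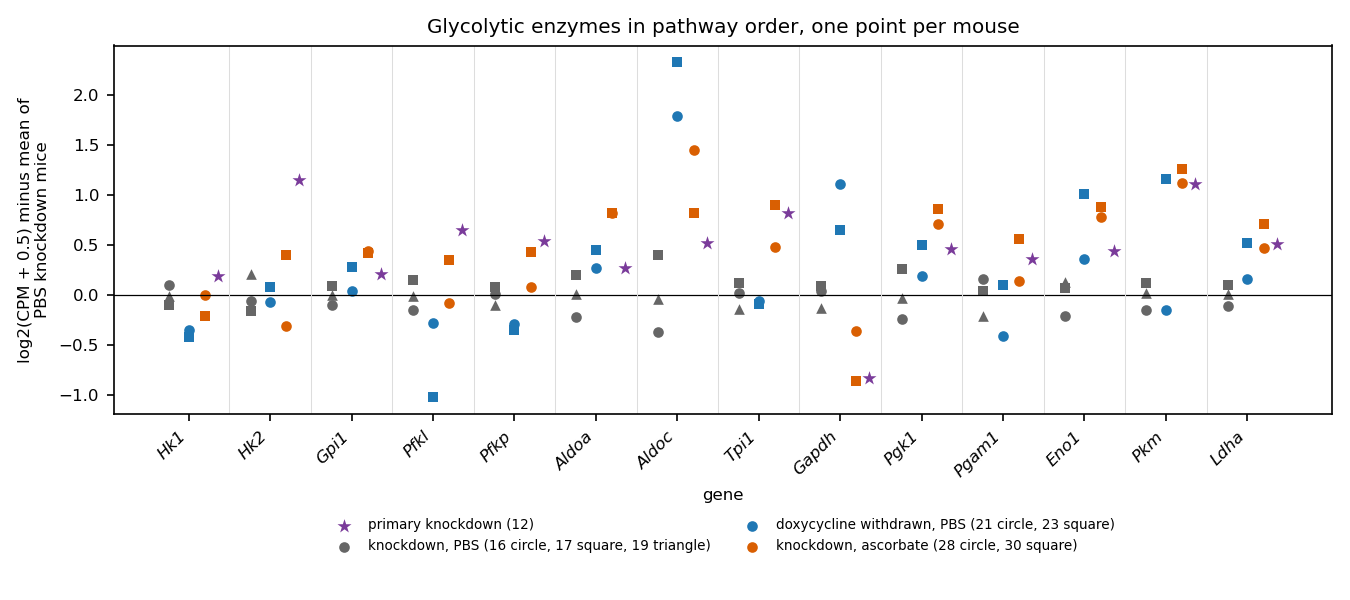
Each point is 1 mouse; the vertical axis is log2(CPM + 0.5) minus the mean of the 3 PBS knockdown mice, and the 14 tested glycolytic enzymes stand in pathway order from hexokinase to lactate dehydrogenase. Under ascorbate (orange) both mice lie above every PBS mouse (grey) for 9 enzymes and below them for Gapdh; Aldoc is highest off doxycycline (blue).

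The first comparison set ascorbate against PBS under sustained knockdown. Ascorbate-treated leukaemias had more RNA of 4 members, each with a different role: the aldolase Aldoa, the glucose transporter Slc2a1, the mitophagy receptor Bnip3 and the mTORC1 inhibitor Ddit4. These 4 of 36 tested members rose and 0 fell by edgeR's quasi-likelihood test at an adjusted p of 0.05, where 1.09% of the 12137 genes tested rose and 1.77% fell (2.86% in either direction). Unadjusted, 17 of the 36 members had a p under 0.05, against 23.6% of all tested genes. In 17 members both ascorbate mice lay above all 3 PBS mice, and in 3 both lay below, against 22.4% and 23.5% of all tested genes.

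Ddit4 (REDD1), which restrains mTORC1 when oxygen or energy is short, was at 26.1, 17.9 and 23.5 CPM in PBS mice 16, 17 and 19 and at 73.9 and 47.4 CPM in ascorbate mice 28 and 30. The groups did not overlap, although the ascorbate mice differed from each other. Ddit4 thus rose by 1.42 on the log2 scale (SE 0.23, edgeR adjusted p 0.0291). Bnip3, an outer mitochondrial membrane receptor that draws mitochondria into autophagy, was at 6.98, 6.40 and 8.32 CPM under PBS and 19.1 and 21.9 CPM under ascorbate. Both ascorbate mice were well above every PBS mouse (log2 fold change 1.49, SE 0.26, edgeR adjusted p 0.0309), with the reservation that most of its transcript is shared with other genes. Its relative Bnip3l had 299, 218 and 217 CPM under PBS and 270 and 281 CPM under ascorbate, and these ranges overlapped.

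Aldoa, the aldolase that splits fructose bisphosphate into trioses, was at 610, 814 and 714 CPM with PBS and 1251 and 1249 CPM in the ascorbate mice. The ascorbate mice lay together and above all PBS mice (log2 fold change 0.80, SE 0.15, edgeR adjusted p 0.0348). Slc2a1 (GLUT1), which carries glucose across the plasma membrane, was at 53.3, 45.2 and 46.5 CPM under PBS and 80.1 and 91.2 CPM under ascorbate (0.82, SE 0.16, edgeR adjusted p 0.0380). The groups again did not overlap, and on library totals in place of TMM factors Slc2a1 did not pass (0.71, edgeR adjusted p 0.0511). Slc2a3 (GLUT3), the other glucose transporter of the list, had 165 to 193 CPM under PBS and 162 and 209 CPM under ascorbate, on both sides of the PBS range. The calls depend on nearly every library of the comparison: without mouse 16, 19, 28 or 30 none of the 4 passed, and without mouse 17 only Aldoa did (adjusted p 0.0495). With each library left out in turn the log2 fold changes themselves ran from 0.71 to 0.90 for Aldoa, 0.71 to 0.91 for Slc2a1, 1.38 to 1.60 for Bnip3 and 1.07 to 1.70 for Ddit4. DESeq2 and limma voom each called 13 members. Here and below, counts of members called under other settings stand without the share of all genes called under the same setting. They describe the settings and say nothing particular about the members.

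**Figure D2:**
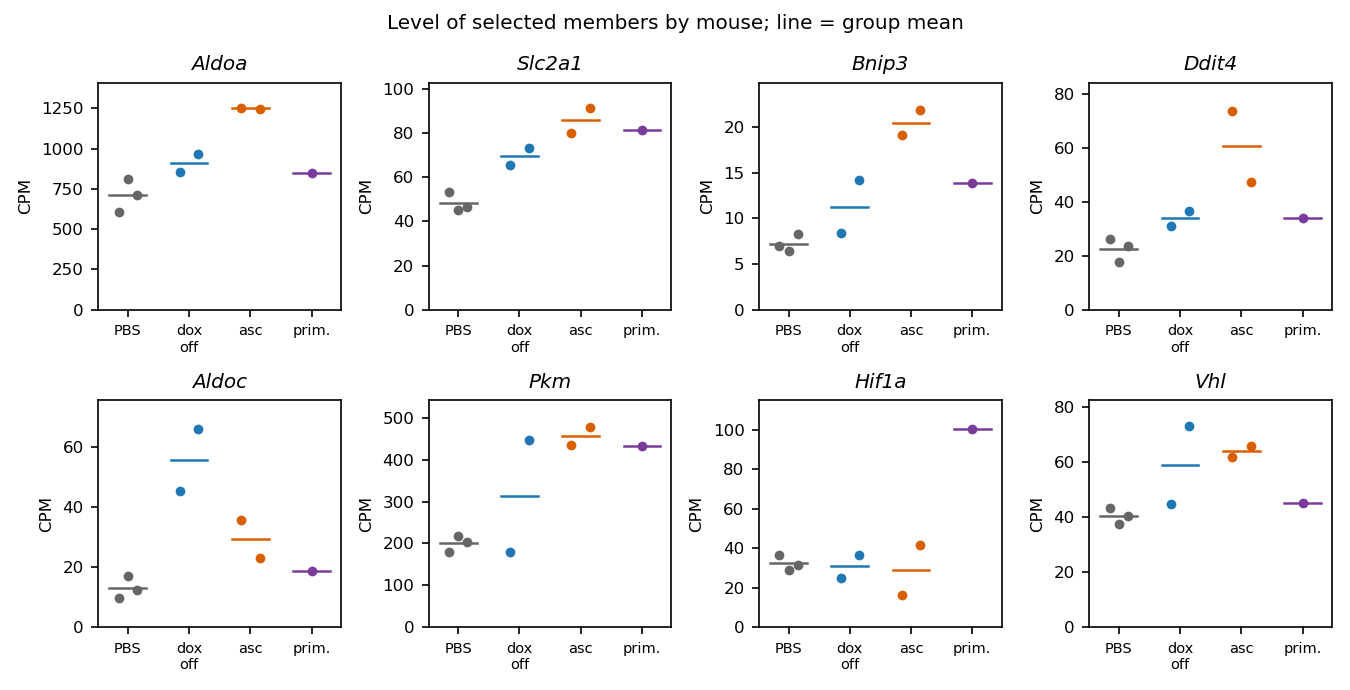
Level in CPM (linear axis from 0) of 8 members, 1 point per mouse, with a line at the group mean; PBS is sustained knockdown with PBS, dox off the group labelled Tet2-restored, asc knockdown with ascorbate and prim. the primary mouse. The group means of Aldoa, Slc2a1, Bnip3 and Ddit4 are highest under ascorbate and lie between PBS and ascorbate off doxycycline, while Hif1a stands out in the primary mouse at 100.3 CPM.

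Stretches upstream of a transcription start of 4 members are shown because ACGTG, a form of the core of the HIF response element, can be found in them. It reads as CACGT on the other strand. Other forms of the core were not searched for and are not marked. Ddit4, Bnip3 and Aldoa are members that rose, and Ldha, the most abundant member, holds the most matches. The sequences are RefSeq promoter entries (GRCm38.p6), given in the direction of transcription and without annotated exon bases, with each match in capitals. The palindrome counts once on each strand. Where a gene has several entries, the stretch with the most matches is shown. Aldoa has 3 entries, 2 of them with the motif, and Ldha has 2 entries, 1 of them with it. The stretches shown for Aldoa and Ldha lie before an internal start, within the span of the gene as annotated.
Ddit4, chr10:59951835-59952020, minus strand: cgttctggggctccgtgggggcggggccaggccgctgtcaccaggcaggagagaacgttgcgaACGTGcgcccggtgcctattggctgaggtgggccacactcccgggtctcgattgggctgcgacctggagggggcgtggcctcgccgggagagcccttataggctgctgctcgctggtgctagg
Bnip3, chr7:138909520-138909756, minus strand: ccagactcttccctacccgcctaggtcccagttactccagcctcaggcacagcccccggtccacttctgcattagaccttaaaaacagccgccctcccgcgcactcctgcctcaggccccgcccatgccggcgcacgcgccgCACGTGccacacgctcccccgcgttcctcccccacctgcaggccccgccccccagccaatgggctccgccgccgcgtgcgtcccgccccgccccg
Aldoa, chr7:126799255-126799504, minus strand: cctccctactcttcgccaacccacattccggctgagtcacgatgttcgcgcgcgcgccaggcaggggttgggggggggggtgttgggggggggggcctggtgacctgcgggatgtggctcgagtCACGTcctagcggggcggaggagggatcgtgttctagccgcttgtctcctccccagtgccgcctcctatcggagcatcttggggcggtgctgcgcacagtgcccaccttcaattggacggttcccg
Ldha, chr7:46845554-46845803, plus strand: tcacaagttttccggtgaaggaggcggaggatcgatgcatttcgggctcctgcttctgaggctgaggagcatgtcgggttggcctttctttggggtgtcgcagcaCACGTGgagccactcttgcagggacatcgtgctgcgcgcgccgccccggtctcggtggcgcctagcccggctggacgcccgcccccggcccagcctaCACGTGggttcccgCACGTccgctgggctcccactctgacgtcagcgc
Of the 34 members with a promoter entry, 16 held the motif on either strand within 250 bases upstream of a start (47.1%), against 25.6% of the 8696 tested genes with an entry and 18.5% of all 27025 genes. The motif was present for 6 of 15 enzymes (40.0%) and 9 of 16 other HIF targets (56.2%). Slc2a1 has 1 match, and its sequence is not shown, while Aldoc, Tpi1, Eno1, Gapdh and Pdk1 have none in this window. A gene without a match may still hold another form of the core, and a match is a string of letters and not a measured binding site.

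The rest of the glycolytic chain can be followed in pathway order under ascorbate. Among the enzymes from hexokinase to phosphofructokinase, 0 of 5 passed. Hk1 had 852, 744 and 791 CPM under PBS and 798 and 686 CPM under ascorbate, and the inducible hexokinase Hk2 had 20.4 to 26.6 and then 18.3 and 30.3 CPM. Both overlapped. Gpi1, phosphoglucose isomerase, had 493, 560 and 529 CPM under PBS and 713 and 704 CPM under ascorbate (log2 fold change 0.42, SE 0.14, edgeR adjusted p 0.116), without overlap. Of the phosphofructokinases among the members, Pfkl overlapped and Pfkp, at 138 to 156.1 and 156.1 and 199.6 CPM, was separated by a hair (0.26, SE 0.16). Pfkm, outside the members, was separated downward, at 151, 137 and 145 CPM under PBS and 99.1 and 110 CPM under ascorbate.

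From aldolase on, 8 of 9 tested enzymes had a log2 fold change above 0, and 7 were separated upward from the PBS mice, beside 49.0% and 22.4% of all tested genes. The split at aldolase was chosen after the values had been seen. Besides Aldoa, none passed over all genes. Tpi1, which interconverts the trioses, came closest, with 352, 375 and 313 CPM under PBS and 482 and 647 CPM under ascorbate (0.69, SE 0.16, edgeR adjusted p 0.0521). Eno1, enolase, had 122, 147 and 154 CPM and then 241 and 259 CPM (0.82, SE 0.20, 0.0603). Pkm, pyruvate kinase, had 180, 218 and 204 CPM and then 434 and 478 CPM (1.18, SE 0.31, 0.0743). For each of these enzymes both ascorbate mice were above all the PBS mice. Pgk1 (0.79, SE 0.21, 0.0749) and Ldha (0.58, SE 0.16, 0.0765), the latter at 908 to 1051 and then 1355 and 1605 CPM, had the same pattern, and Pgam1 overlapped. Aldoc, the second aldolase, had 9.80, 17.1 and 12.5 CPM and then 35.8 and 23.0 CPM (1.15, SE 0.28, 0.0603). Gapdh had the opposite sign, at 7.94, 8.25 and 7.03 CPM under PBS and 5.93 and 4.06 CPM under ascorbate (−0.65, SE 0.27, 0.189), and is the enzyme with most sequence shared.

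Control genes of glycolysis other than Slc2a1 did not pass. Pdk1, the kinase that switches off pyruvate dehydrogenase, had 36.8, 30.5 and 35.8 CPM under PBS and 54.3 and 57.4 CPM under ascorbate (0.69, SE 0.23, edgeR adjusted p 0.115), without overlap. Pfkfb3, which makes the activator of phosphofructokinase, varied more than 4-fold among the PBS mice (9.24, 12.3 and 2.76 CPM) and was at 15.4 and 28.3 CPM under ascorbate (1.43, SE 0.66, 0.236). The spread of Pfkfb3 is as wide as its difference. Pfkfb4 had 5 counts in mouse 28 and 39 in mouse 30, and the lactate exporter Slc16a3 (MCT4) had 83.1 to 102 CPM under PBS and 66.5 and 136 CPM under ascorbate. The glycogen genes Gys1 and Gbe1 had log2 fold changes of 0.04 and −0.24.

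Among the remaining HIF targets, Mif, a cytokine, was at 9.15, 11.3 and 11.3 CPM under PBS and 17.5 and 18.1 CPM under ascorbate (0.74, SE 0.21, edgeR adjusted p 0.0855). Ankrd37 was at 1.90 to 2.46 and then 4.46 and 3.51 CPM (0.87, SE 0.32, 0.146). Both were separated and neither passed. Other classical targets overlapped: the growth factor Vegfa had 16.2 to 18.3 CPM under PBS and 14.6 and 17.1 CPM under ascorbate, the oxidoreductase Ero1l 116 to 170 and then 116 and 168 CPM, and the repressor Bhlhe40 88.0 to 127 and then 110 and 93.4 CPM. Higd1a and Fam162a, both mitochondrial proteins, had log2 fold changes of 0.24 (SE 0.28) and −0.07 (SE 0.29). In the HIF machinery, Vhl, the substrate receptor that removes HIF-1alpha, was at 43.1, 37.4 and 40.3 CPM under PBS and 61.8 and 65.9 CPM under ascorbate (0.66, SE 0.21, 0.113). Arnt had 47.4 to 59.9 CPM under PBS and 39.0 and 39.1 CPM under ascorbate (−0.44, SE 0.17, 0.154). Hif1a itself had 36.7, 29.0 and 31.6 CPM under PBS and 16.1 and 41.4 CPM under ascorbate (−0.18, SE 0.35, 0.786), so the ascorbate mice bracketed the PBS mice.

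Set side by side, the enzymes had a median log2 fold change of 0.50 under ascorbate (12 of 14 above 0) and the other HIF targets 0.08 (13 of 19 above 0), beside −0.01 over all tested genes (49.0% above 0). By mouse the median of the enzymes against the PBS mean was 0.452 in mouse 28 and 0.637 in mouse 30, and that of the other targets 0.127 and 0.218, where the PBS mice ran from −0.103 to 0.095 and from −0.044 to 0.077. Of the 4 members that rose, 3 belong to the other targets. The classes differ in shared sequence too: over members with under 10% of windows shared, the median was 0.14 for 5 enzymes and 0.05 for 12 other targets. These 5 enzymes were Hk1 (−0.11), Hk2 (0.08), Pfkl (0.14), Tpi1 (0.69) and Aldoc (1.15). Hk1, Hk2 and Pfkl come before aldolase, and the parts of pathway position and of shared sequence in the lower median were not tested. On library totals the median of the other targets was −0.0147. No test was made of the difference between the classes, whose members were not chosen at random.

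**Figure D3:**
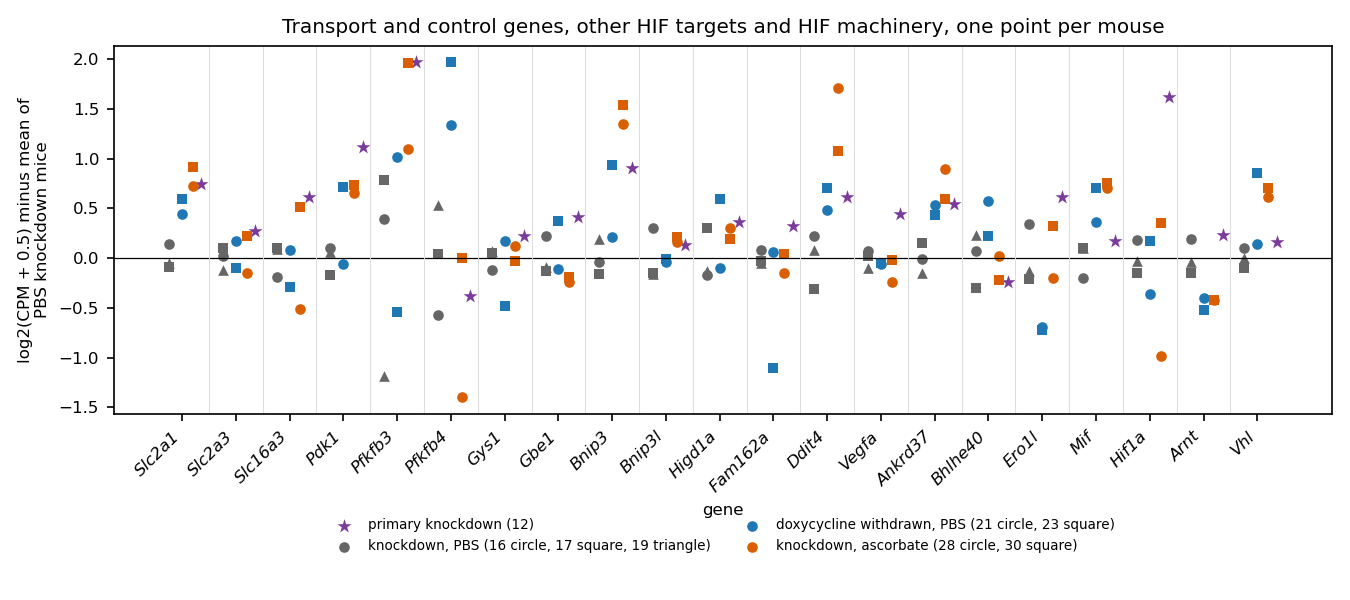
Axes as in the plot of the enzymes, for the transport, control, glycogen, mitochondrial and signalling members and the HIF machinery (1 point per mouse). Adm and Ndrg1 are left out. Ddit4, Bnip3 and Slc2a1 lie above the PBS mice in both ascorbate mice, while Vegfa and Slc2a3 stay near 0 in the secondary mice and Hif1a is apart in the primary mouse.

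**Figure D4:**
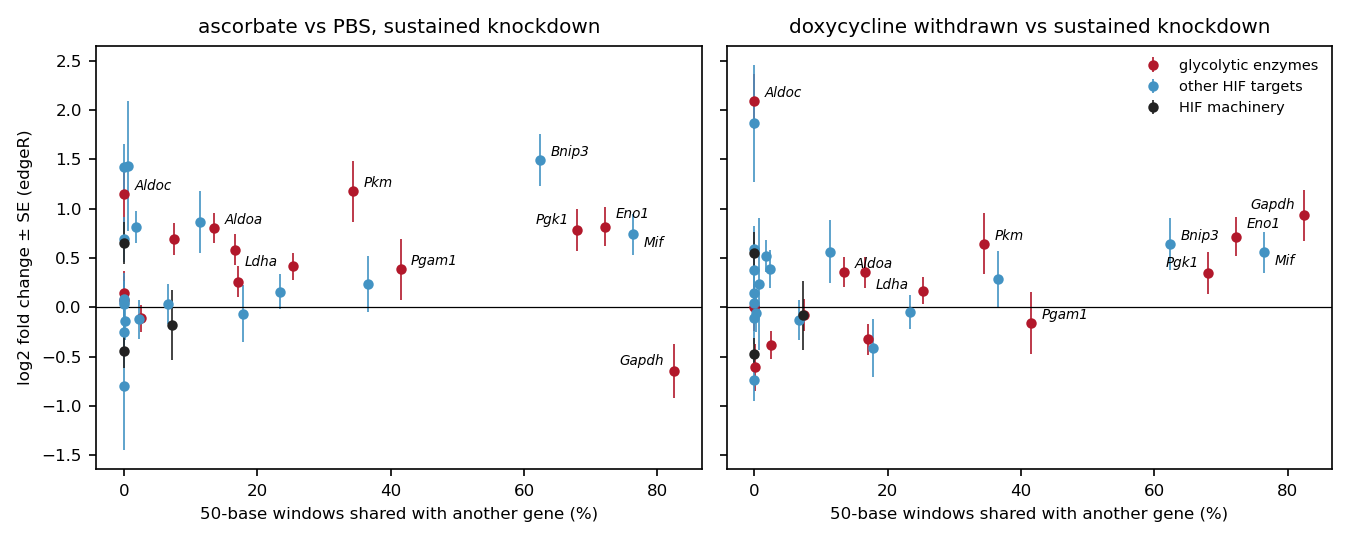
Log2 fold change with its SE (vertical axis) against the percentage of 50-base transcript windows shared with another gene (horizontal axis). Each point is 1 tested member, coloured by class, and Ndrg1 is left out. The left panel is ascorbate against PBS and the right panel doxycycline withdrawal against sustained knockdown; Gapdh, at 82.5%, is below 0 on the left and above 0 on the right, and Ddit4 and Aldoc lie at 0%.

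The second comparison set the mice off doxycycline, labelled Tet2-restored, against the same PBS knockdown mice. None of the 36 members passed by edgeR (0% of 12137 genes did), 14 had an unadjusted p under 0.05 against 29.2% of all genes, and DESeq2 called 5 members higher and 1 lower. Both mice lay above the PBS mice in 12 members and below in 5, against 24.9% and 24.5% of all tested genes, and the estimate was above 0 in 23 of 36 against 49.8%. Aldoc had the smallest p of the members. It was at 9.80, 17.1 and 12.5 CPM under PBS and 45.5 and 66.1 CPM off doxycycline, far apart (log2 fold change 2.09, SE 0.28, edgeR adjusted p 0.0502). It stood at 0.0487 with DESeq2 size factors.

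Hk1, Pfkl and Pfkp of the upper pathway lay below the PBS mice in this group. Besides Aldoc, Eno1, Gapdh, Aldoa and Ldha of the lower pathway lay above them. Hk1 had 625 and 596 CPM off doxycycline against 744 to 852 CPM (−0.38, SE 0.14, edgeR adjusted p 0.112), Pfkl 88.5 and 52.6 against 96.9 to 119 CPM (−0.61, SE 0.23, 0.127) and Pfkp 121 and 115 against 138 to 156.1 CPM (−0.32, SE 0.16, 0.203). Eno1 had 180 and 283 CPM (0.72, SE 0.20, 0.0673), Gapdh 17.3 and 12.4 CPM (0.94, SE 0.26, 0.0669) and Aldoa 855 and 970 CPM (0.36, SE 0.15, 0.156). Ldha had 1099 and 1411 CPM against 908 to 1051 CPM (0.35, SE 0.16, 0.172). None of these enzymes passed. Without mouse 23 the values were 0.35 for Eno1 and −0.29 for Pfkl, and without mouse 21 they were 1.01 and −1.03. Of the other targets, Slc2a1 had 65.7 and 73.1 CPM (0.52, SE 0.16, 0.0806) and Ddit4 31.2 and 36.6 CPM (0.59, SE 0.24, 0.136), both above the PBS mice. The bifunctional regulator Pfkfb4 had 4.86 and 7.82 CPM against 0.928 to 2.58 CPM (1.87, SE 0.59, 0.0847). Ero1l, which makes disulphide bonds in the endoplasmic reticulum, had 82.8 and 81.3 CPM against 116 to 170 CPM (−0.73, SE 0.22, 0.0780), the lowest of the 8 libraries. In the machinery Hif1a had 25.1 and 36.4 CPM, Arnt 39.6 and 36.4 CPM and Vhl 44.5 and 73.1 CPM.

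Mice 21 and 23 were unlike each other in several members. Pkm had 180.5 CPM in mouse 21, within the PBS range, against 447 CPM in mouse 23. Fam162a was at 36.9 and 16.2 CPM, Pdk1 at 32.9 and 56.4 CPM, and Bnip3 at 8.41 and 14.2 CPM. The enzymes' median against the PBS mean was −0.008 in mouse 21 and 0.370 in mouse 23, which has the higher Tet2 level and a mitochondrial share of 14.5% against 9.49%. The part of these in the difference was not tested. Leaving out either mouse leaves 1 library in the group, so only log2 fold changes are given, for members picked by the fit without mouse 21. Without mouse 21 they were 1.16 for Pkm, 2.34 for Aldoc, 1.01 for Eno1, 0.87 for Vhl, 0.98 for Bnip3 and 0.72 for Pdk1. Those of Fam162a and Pfkl were −1.12 and −1.03. Without mouse 23 the values were −0.16 for Pkm, 1.79 for Aldoc, 0.14 for Vhl, 0.21 for Bnip3, −0.0693 for Pdk1 and 0.0549 for Fam162a. The class medians were 0.26 for the enzymes and 0.24 for the other targets, beside −0.002 over all genes, and −0.0806 for the 5 enzymes with under 10% of windows shared. Those 5, Hk1, Hk2, Pfkl, Tpi1 and Aldoc, ran from −0.61 (Pfkl) to 2.09 (Aldoc).

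Because both arms share the PBS mice, they were also compared directly. Of the 36 members 0 passed between the mice off doxycycline and those given ascorbate, 1 gene in all did (0.00824% of 12137), 11 members had an unadjusted p under 0.05 against 16.2% of all genes, and DESeq2 called 2 members higher and 2 lower off doxycycline. Members were separated upward in 5 cases and downward in 16, against 22.8% and 22.1% of all tested genes, and the estimate was above 0 in 10 against 51.4%. Gapdh, at 17.3 and 12.4 CPM off doxycycline and 5.93 and 4.06 CPM under ascorbate, had the smallest p (1.58, SE 0.30, edgeR adjusted p 0.0939). Tpi1 had 331 and 325 CPM off doxycycline against 482 and 647 CPM (−0.78, SE 0.18, 0.144), and Pfkfb4 a difference of 2.66 (SE 0.71, 0.167). The 4 members that rose under ascorbate had direct differences of −0.83 (Ddit4, SE 0.26), −0.85 (Bnip3, SE 0.29), −0.45 (Aldoa, SE 0.17) and −0.30 (Slc2a1, SE 0.18), none past the threshold, so a difference between the arms was not shown for them.

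The primary mouse, also on doxycycline, was compared with the secondary PBS knockdown mice in a fit of all 8 libraries, which takes the spread of the other groups for its lone library. None of the 36 members passed by edgeR, against 0.0691% of 13024 genes called higher and 0.0461% lower (0.115% in all). Unadjusted, 12 members had a p under 0.05 (9.08% of all genes), and DESeq2 called 5. Mouse 12 lay above all 3 PBS mice in 31 members and below them in 2, where 31.8% and 29.7% of all genes did so, and the estimate was above 0 in 32 against 48.8%. Hif1a was at 100.3 CPM against 29.0 to 36.7 CPM (1.63, SE 0.40, edgeR adjusted p 0.221), the highest of the 8 libraries. Hk2 was at 51.2 CPM against 20.4 to 26.6 CPM (1.16, SE 0.28, 0.184), Pdk1 at 75.0 against 30.5 to 36.8 CPM (1.13, SE 0.27, 0.181) and Tpi1 at 612 against 313 to 375 CPM (0.82, SE 0.20, 0.184). Hk2, at 18.3 to 30.3 CPM in the other 7 mice, was high in mouse 12 alone. The class medians were 0.48 for the enzymes and 0.42 for the other targets, beside −0.01 over all genes, and Gapdh again had the opposite sign (4.15 CPM; −0.90, SE 0.36). In this mouse the blast markers summed to 870 CPM, against 439 to 681 CPM, and neutrophil markers to 43.6 CPM, against 1.08 to 8.62 CPM.

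Genes of the same pathways outside the 38 were looked at from lists. Of 30 further HIF targets 19 were tested under ascorbate: 1 rose and 1 fell, beside 1.09% and 1.77% of all tested genes, and their median was −0.18. Mxi1, an antagonist of Myc, rose from 155, 139 and 144 CPM under PBS to 251 and 226 CPM under ascorbate (0.70, SE 0.15, edgeR adjusted p 0.0459). Angptl4, a secreted inhibitor of lipoprotein lipase, fell from 20.7, 29.3 and 22.3 CPM to 6.84 and 9.61 CPM (−1.55, SE 0.31, 0.0387). These HIF targets thus moved in opposite directions. Among oxygen-sensing genes 0 of 8 tested passed, beside 2.86% of all tested genes in either direction. Egln2, a prolyl hydroxylase, had 39.8 to 68.6 CPM over the 8 mice, while Egln1 stayed at 0.645 CPM or below, and Egln3, itself a HIF target, was at 2.84 CPM in mouse 12 and at most 0.247 CPM elsewhere (edgeR adjusted p 0.115). Of 23 further glycolysis isoenzymes and regulators 11 were tested under ascorbate and 0 passed, beside the same 2.86%, with a median of −0.21. Both ascorbate mice lay below all PBS mice in 5 of these 11 and above them in 1, against 23.5% and 22.4% of all tested genes. Lower were Pfkm, the pyruvate kinase Pklr (98.3 to 129 and then 83.0 and 67.9 CPM) and Adpgk (104 to 120 and then 82.0 and 78.9 CPM), among others. Bpgm was higher, at 58.7 to 64.0 and then 96.8 and 65.7 CPM. Off doxycycline 0 members of any of these lists passed.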

How the data were processed

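Poly(A) RNA libraries were made with the NEXTflex kit, per the labels' protocols. Raw gene counts and FPKM values were deposited by the authors. STAR, featureCounts and DESeq2 with mm10 (GRCm38) are named in the submitters' processing notes, while versions, settings and strand are not given in the sources used here. Counts were tested with edgeR 4.0.16 (R 4.3.3): TMM factors, a filterByExpr minimum count of 10, robust quasi-likelihood fits and Benjamini-Hochberg adjustment over all tested genes. Of the 4 comparisons 3 used 1 fit of the 7 secondary libraries, and the primary library a fit of all 8. SE is that of the log2 fold change. Each library is 1 mouse. Alternatives used DESeq2 1.42.0, limma 3.58.1, other scalings and filters, log2(FPKM + 0.1) and log2(FPKM + 1), a transcript-length offset, and each library left out. Fits of the ascorbate comparison were also run on simulated counts with planted changes, drawn from means and spreads of these libraries. Such counts cannot show effects of cell mixture or of shared reads. Coordinates and shared 50-base windows came from GENCODE vM21, promoters from RefSeq GRCm38.p6 (250 bases). The members, lists and roles were chosen with earlier results of these data known. All 38 members are accounted for. Values per library are given for those past the threshold and for up to 4 per role with the smallest p. The split of the pathway at aldolase and the limits on shared windows were chosen after values had been seen.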

Additional observations from a re-analysis of the deposited data

How the results depend on the processing

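No paired analysis was possible because each mouse number belongs to 1 group only. The counts of called members in this section are given without the share of all genes called under the same setting. Members called higher under ascorbate numbered 4, against 3 on library totals (without Slc2a1), 13 with DESeq2, 13 with limma voom, 12 with no filter on low counts, 12 with only the groups compared, and 0 to 11 with each library left out in turn. The enzymes' median of 0.50 was 0.14 over members with under 10% of windows shared and 0.43 to 0.65 with a library left out. Under the 20% limit it lay closer to 0.50 than to 0.14. The median of the other targets (0.08) was −0.0147 on library totals, 0.18 on both FPKM scales and 0.0812 to 0.21 with a library left out. Off doxycycline, members called higher numbered 0, against 1 with DESeq2 size factors, 5 with DESeq2, 5 with no filter, 1 with a minimum count of 50, 1 with mitochondrial genes left out and 0 to 6 with a library left out, and members called lower 1 with DESeq2, 2 with no filter and 0 to 2 with a library left out. There the enzymes' median (0.26) was −0.0806 and −0.04 under the 10% and 20% limits on shared windows and −0.0179 to 0.37 with a library left out, and the other targets' (0.24) was 0.11 on log2(FPKM + 1), 0.15 under the 20% limit and 0.16 to 0.28 with a library left out. Between the arms DESeq2 called 2 higher and 2 lower and no filter 3 and 4, against 0; on library totals the medians were −0.24 and −0.0775, against −0.35 and −0.18, and the enzymes' was −0.45 to −0.21 with a library left out. For the primary mouse DESeq2 called 5, limma voom 4, no filter 5 and only the groups compared 1, against 0; under the 10% limit the medians were 0.65 and 0.53, and the other targets' was 0.40 to 0.53 with a library left out. The cause of these shifts was not tested. With 2 or 3 mice a group, members at a few counts per library, such as Ndrg1, cannot show a difference.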

Other observations

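Pathways that branch from glycolysis had few members with large differences under ascorbate. Of 7 pentose phosphate genes 0 passed (median log2 fold change 0.20), and the same held for 11 tested glycogen genes (0.13), 3 gluconeogenic genes (0.28) and 20 genes of pyruvate dehydrogenase and the TCA cycle (0.08), by edgeR. Unadjusted, 3, 1, 1 and 2 of them had a p under 0.05, beside 23.6% of all tested genes, so these counts say nothing particular about the lists. Taldo1, the transaldolase of the pentose phosphate pathway, was at 478 to 607 CPM with PBS and knockdown and 771 and 655 CPM with ascorbate, and Sdhd, a membrane subunit of succinate dehydrogenase, at 200 to 225 and then 334 and 278 CPM. Both were chosen after their values were seen.

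In the primary mouse Suclg2, the GTP-forming subunit of succinyl-CoA ligase, was at 14.7 CPM, while mice 16, 17 and 19 had 0, 0.287 and 0.287 CPM and no other secondary mouse exceeded 0.0418 CPM (edgeR adjusted p 0.0282). With 1 primary library this difference has no replicate check.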
